A study of Mus musculus with 2 samples.

Results

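Genes of the piRNA pathway were measured in cultured mouse primordial germ cells (PGCs), the fetal precursors of eggs and sperm, after over-expression of Klf9. The group holds 10 genes, chosen by name as Piwi proteins, Tudor proteins and piRNA biogenesis factors (Piwil2, Piwil4, Mov10l1, Mael, Asz1, Gtsf1, Pld6, Tdrd1, Tdrd9 and Tdrkh), out of 23320 gene symbols that both libraries list. All 10 were found, each as 1 locus per library, and all were above 0 in both libraries. PGCs were sorted at E13.5 by the GFP of an Oct4-deltaPE-GFP transgene, from genital ridges of male and female embryos of MCH mothers and transgenic fathers, and the share of each sex is not given. They received either a Klf9-OE lentivirus, in which the coding region of Klf9 sits in a CSII-EF vector, or a control lentivirus, at an MOI of 5, and were kept for 1 day on gelatin. The study's methods name several control vectors without saying which served for sequencing. The labels state that the medium held bFGF and the text of the study states that it did not, for both libraries alike. Each condition is 1 library, so no difference has a replicate check and no p-value is given.

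piRNAs are small RNAs that Piwi proteins carry to silence transposons in the germ line. Long precursors are unwound by the helicase MOV10L1, cut on the surface of mitochondria, loaded into Piwi proteins and trimmed there with TDRKH as a platform, while Tudor proteins hold the parts together by binding methylated arginines of the Piwi proteins. In fetal male germ cells PIWIL2 (MILI) takes part in piRNA amplification in the cytoplasm, and PIWIL4 (MIWI2) enters the nucleus and directs DNA methylation of transposons through DNMT3L and its partners.

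Expression is given as RPKM, the reads of a gene scaled by its transcript length and by the mapped reads of the library, with the 95% interval that Cufflinks attached to it, which covers the error of estimation within that library only. Except for Pld6 and Mael, the loci of the group were assembled from the reads of each library. The transcript models behind an RPKM may thus differ between the libraries, and their part in the differences was not tested. The files hold no read totals. For genes with a single start site the interval implies a read number, and by this measure Klf9-OE had 1.22 reads for each control read (median of 2800 genes with at least 50 implied reads in both libraries). Implied numbers from 1 to 9 that lay within 0.06 of a whole number were even for 36.5% of 2100 genes in control PGCs and for 89.5% of 1747 genes in Klf9-OE PGCs. The cause was not tested. If the reads of Klf9-OE PGCs had been counted in pairs, the ratio of 1.22 would overstate them and their intervals would be too narrow. Calls that end with the Klf9-OE intervals widened by the square root of 2, as for such pairs, are named beside the genes concerned. Klf9 itself stood at 2.27 RPKM in the control library (1.97 to 2.57) and at 80.8 RPKM in the Klf9-OE library (77.0 to 84.5), with vector and endogenous reads not separated. The germ cell markers Ddx4 (RPKM 299.9 in control and 292 in Klf9-OE PGCs), Dazl (351 and 378) and Pou5f1 (387 and 277) were high in both libraries. Of the same list, Dppa3 was at 294 and 179, and the others stood at smaller values, down to Prdm1 at 5.42 and 4.34.

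The piRNA pathway was highly expressed in both libraries, and 7 of the 10 genes were slightly lower after over-expression of Klf9. The sum over the 10 genes was an RPKM of 1025 in control and 945 in Klf9-OE PGCs, a ratio of 0.922. Piwil2, Piwil4, Mov10l1, Mael, Pld6, Tdrd1 and Tdrd9 were lower with intervals that did not overlap between the libraries, Gtsf1 was higher with intervals that did not overlap, and the intervals of Asz1 and Tdrkh overlapped. Among all 18742 genes above 0 in at least 1 library, 14.4% were lower and 11.2% were higher with intervals apart. Intervals are narrower for higher genes, and among the 6608 genes whose mean RPKM lay in the range of the 10 genes (9.48 to 227) these shares were 22.9% and 14.3%. Pld6 alone sets the lower end of this range, and the next lowest of the 10 genes, Piwil4, was at 45.1 in control and 33.5 in Klf9-OE PGCs. For genes at the level of the others these shares may thus be too small, and no closer range was computed. In either direction, the intervals of 8 of the 10 genes were apart, against 25.5% of all genes and 37.2% of the genes of like level. The counts depended on the scaling: with Klf9-OE values rescaled to the same sum as control, only Piwil2, Piwil4, Tdrd9 and Mael were lower with intervals apart, Asz1 joined Gtsf1 as higher, and the share of lower genes among all genes with intervals apart was 41.5% instead of 56.3%. Of all genes, 10.8% were then lower and 15.2% were higher with intervals apart. With widened Klf9-OE intervals, 11.9% of all genes were lower and 8.44% were higher, and 7 of the 10 genes were lower and 0 were higher. The differences were small, since log2 fold changes, taken as log2(RPKM + 0.1) in Klf9-OE minus control, ran from -0.43 to 0.20 with a median of -0.19. The median of all genes was -0.015 and that of the 6608 genes of like level was -0.029. None of the 10 genes was 1.5-fold lower or 1.5-fold higher, against 15.1% and 16.1% of all genes and 4.71% and 3.16% of the genes of like level. In RNA from a whole culture, fewer cells of a type and less RNA per cell cannot be told apart.

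**Figure D1:**
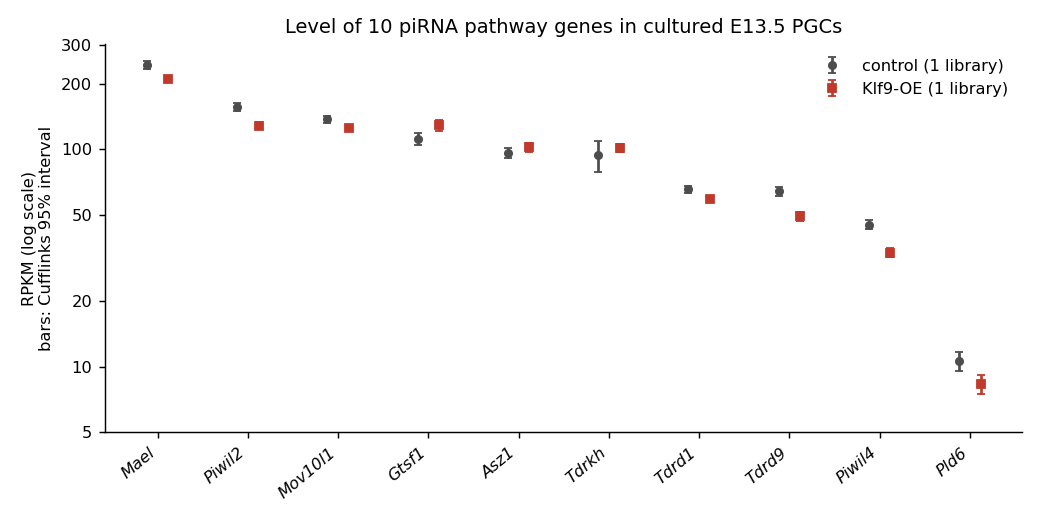
RPKM of the 10 piRNA pathway genes (log axis) in the control library (grey circles) and the Klf9-OE library (red squares), with Cufflinks 95% intervals as bars and genes ordered by control RPKM. Mael is highest and Pld6 lowest in both libraries, and Klf9-OE lies below control for 7 genes and above it for Gtsf1, Asz1 and Tdrkh.

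Levels among the genes spanned 23.0-fold in control PGCs, from Mael at 244 to Pld6 at 10.6, and 25.1-fold in Klf9-OE PGCs, from 209.5 to 8.35. In control PGCs the order was Mael, Piwil2, Mov10l1, Gtsf1, Asz1, Tdrkh, Tdrd1, Tdrd9, Piwil4 and Pld6, in which only the neighbours Asz1 and Tdrkh, and Tdrd1 and Tdrd9, had overlapping intervals. In Klf9-OE PGCs Gtsf1 stood in the second place, where its interval overlapped that of Piwil2 and that of Piwil2 overlapped that of Mov10l1, and Tdrd1 and Tdrd9 no longer overlapped. By level in control PGCs, 9 of the genes lay between the top 1.5% (Mael) and the top 11.1% (Piwil4) of all genes, and Pld6 lay in the top 34.9%.

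Several of the lower genes hold the same short motif near their start sites, and a few of these sequences are shown with that of Gtsf1, in which it was not found. RefSeq promoters on GRCm38.p6, the mm10 build of the files, were at hand for 9 of the 10 genes, all but Piwil2, and the 250 bases before the start site were read on both strands for the E-box CACGTG, bound by MAX and MYC family proteins, and for the GC box GGGCGG, bound by Sp and Klf proteins. These motifs were picked after the promoters and the values had been seen. The sequences shown are a selection. Piwil4, which was lower, held no E-box and is not shown, and the same holds for Asz1 and Tdrkh, whose intervals overlapped. The sequences below run 5′ to 3′ on the strand of the gene, capitals mark the E-box, and each ends before the first annotated transcribed base. Mael (chr1:166238748-166238994, reverse strand), Tdrd9 (chr12:111971309-111971487, forward strand) and Pld6 (chr11:59787658-59787907, reverse strand) were lower in Klf9-OE PGCs, and Gtsf1 (chr15:103430471-103430677, reverse strand) was higher.
Mael: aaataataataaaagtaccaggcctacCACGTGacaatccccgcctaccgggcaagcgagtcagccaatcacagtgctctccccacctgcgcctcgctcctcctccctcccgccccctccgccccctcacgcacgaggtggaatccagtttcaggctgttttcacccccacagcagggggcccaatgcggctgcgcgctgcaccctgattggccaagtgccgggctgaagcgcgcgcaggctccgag
Tdrd9: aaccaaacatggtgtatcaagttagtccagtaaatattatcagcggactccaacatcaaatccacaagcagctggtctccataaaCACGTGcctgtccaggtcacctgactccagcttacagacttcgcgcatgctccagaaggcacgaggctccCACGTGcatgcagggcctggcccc
Pld6: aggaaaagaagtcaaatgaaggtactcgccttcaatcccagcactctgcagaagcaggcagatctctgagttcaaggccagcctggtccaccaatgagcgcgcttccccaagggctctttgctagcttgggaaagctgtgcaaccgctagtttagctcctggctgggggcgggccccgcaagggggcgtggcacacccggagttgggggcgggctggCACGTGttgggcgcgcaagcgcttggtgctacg
Gtsf1: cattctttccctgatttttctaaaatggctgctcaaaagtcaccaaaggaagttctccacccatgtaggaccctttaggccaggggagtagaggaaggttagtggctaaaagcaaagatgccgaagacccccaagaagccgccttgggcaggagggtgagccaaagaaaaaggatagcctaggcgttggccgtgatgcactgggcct

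An E-box was present in the windows of Mael, Mov10l1, Pld6, Tdrd1 and Tdrd9, so of 5 of the 9 genes, against 6.04% of 27025 promoters of the same length and 10.3% of the 4958 promoters of genes of like level. All 5 genes with an E-box were lower in Klf9-OE PGCs with intervals apart, while of the 4 without one only Piwil4 was. Piwil2, which was lower too, had no promoter at hand. The motif was picked with these promoters and values known, so neither the count of 5 of the 9 genes nor the contrast is a test. This contrast depended on the scaling, since with the same sum as control 2 of the 5 genes with an E-box (Mael and Tdrd9) and 1 of the 4 without one were lower, and with the same upper quartile or a median ratio of 1 it was 4 of 5 and 1 of 4. Tdrd9 held a pair of E-boxes, from -165 to -160 and from -95 to -90 relative to the start site of the RefSeq window, and that of Tdrd1 lay from -11 to -6. RefSeq also lists an earlier start of Tdrd1, and this match lies within the gene by that start, so 4 of the 9 genes held an E-box before the whole annotated gene. Over all genes of like level, 25% of 511 genes with an E-box and 23.0% of 4447 genes without one were lower with intervals apart, and their median log2 fold changes were -0.046 and -0.027. A GC box was present in the windows of Asz1, Mael, Mov10l1, Pld6 and Tdrkh, which is 5 of 9 genes, against 33% of all promoters and 64.8% of those of genes of like level. The GC box of Mov10l1 lies within the gene by its earliest annotated start. Of the 5 genes with a GC box 3 were lower, and of the 4 without one 3 were lower. These counts were 1 of 5 and 2 of 4 with the same sum as control. They were 2 of 5 and 3 of 4 with the same upper quartile or a median ratio of 1. Over all genes of like level, 24.0% of 3213 genes with a GC box and 21.6% of 1745 without one were lower. The upstream windows held 7 to 19 CpG with a median of 14, where the median of all promoters was 6 and that of genes of like level was 18. A match of these letters is a description of the sequence and does not show binding.

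**Figure D2:**
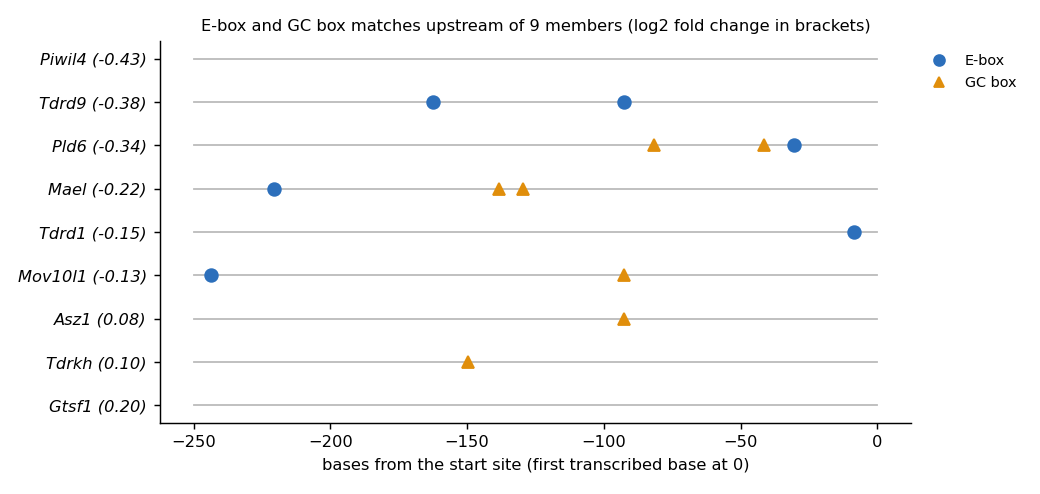
Positions of E-box (blue circles) and GC box (orange triangles) matches in the 250 bases upstream of 9 genes, with distance from the start site on the x axis and the log2 fold change of each gene in brackets. Circles appear on 5 of the 6 lines of lower genes and on none of the lines of Asz1, Tdrkh and Gtsf1.

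Both Piwi proteins of fetal germ cells were lower in Klf9-OE PGCs. Piwil2 (MILI; chromosome 14, 70372477 to 70436898 of GRCm38.p6, reverse strand, 23 exons) had an RPKM of 157 (150 to 163) in control and 128 (123 to 133) in Klf9-OE PGCs, so that it was 18.0% lower (ratio 0.820, log2 fold change -0.29). Piwil4 (MIWI2; chromosome 9, 14701776 to 14740672, reverse strand, 20 exons) had an RPKM of 45.1 (42.9 to 47.2) in control and 33.5 (31.9 to 35.1) in Klf9-OE PGCs, which is 25.7% lower (ratio 0.743, log2 fold change -0.43). Piwil4 had the largest relative difference of the 10 genes, although 7.87% of the genes of like level had a lower log2 fold change. Piwil2 was 3.47 times as high as Piwil4 in control PGCs and 3.84 times in Klf9-OE PGCs. Exons of Piwil4 overlap those of Gm10706 on the opposite strand, and the library kit does not mark strand, so reads of these genes cannot be told apart.

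The helicases were lower too, to a different degree. Mov10l1, whose helicase unwinds piRNA precursors (chromosome 15, 88982891 to 89055152, forward strand, 27 exons), had an RPKM of 137 (132 to 143) in control and 125 (121 to 130) in Klf9-OE PGCs (log2 fold change -0.13). The bounds of its intervals, 131.8 and 129.6, lay close together, and they overlapped when Klf9-OE was rescaled to the same upper quartile, to the same median ratio or to the same sum as control. Tdrd9 (chromosome 12, 111971488 to 112068854, forward strand, 36 exons), which joins Tudor and helicase domains and works with PIWIL4, had an RPKM of 64.2 (61.2 to 67.2) in control and 49.3 (46.9 to 51.6) in Klf9-OE PGCs. It was 23.3% lower, the second largest difference of the group after its partner Piwil4.

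Of the Tudor proteins, Tdrd1 was lower and Tdrkh was not. Tdrd1 (chromosome 19, 56826171 to 56870012, forward strand, 25 exons), which binds PIWIL2, had an RPKM of 65.5 (62.9 to 68.0) in control and 58.9 (57.0 to 60.9) in Klf9-OE PGCs (log2 fold change -0.15). Its intervals, and those of Pld6, overlapped with the same sum as control. Tdrd1 was at 1.02 times the level of Tdrd9 in control PGCs and at 1.196 times in Klf9-OE PGCs. Tdrkh (chromosome 3, 94413243 to 94434854, forward strand, 14 exons), the mitochondrial platform for trimming, had an RPKM of 93.9 (78.2 to 110) in control and 101 (96.7 to 105) in Klf9-OE PGCs, and its intervals overlapped. The upper bound of Tdrkh lay 16.7% above its value in control PGCs and 4.24% above it in Klf9-OE PGCs, so the control value is the least precise of the group. Its exons overlap those of Oaz3 on the opposite strand, a gene with an RPKM of 5.58 in control and 10.7 in Klf9-OE PGCs, and without strand the reads in the overlap cannot be assigned.

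Of the proteins anchored on mitochondria, Pld6 was lower and Asz1 was not. Pld6 (chromosome 11, 59783893 to 59787657, reverse strand, 2 exons), the nuclease that cuts piRNA precursors, had an RPKM of 10.6 (9.56 to 11.7) in control and 8.35 (7.51 to 9.19) in Klf9-OE PGCs, which is 21.2% lower. Asz1 (GASZ; chromosome 6, 18050964 to 18109061, reverse strand, 13 exons), a scaffold of the granules between mitochondria, had an RPKM of 96.5 (91.4 to 101) in control and 102 (97.4 to 107) in Klf9-OE PGCs, with overlapping intervals. Pld6 was the lowest gene of the group, and its intervals were the widest in Klf9-OE PGCs, with the upper bound 10.1% above the value.

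The cofactors Mael and Gtsf1 differed in opposite directions. Mael (chromosome 1, 166201385 to 166238744, reverse strand, 12 exons), a protein of the granules that hold PIWIL4 and TDRD9, had an RPKM of 244 (233 to 255) in control and 209.5 (205 to 214) in Klf9-OE PGCs (log2 fold change -0.22). Its locus was assembled from reads in control PGCs and was the annotated gene in Klf9-OE PGCs, with the same outer bounds. Gtsf1 (chromosome 15, 103402458 to 103430445, reverse strand, 9 exons), a zinc finger protein that Piwi proteins need for silencing, had an RPKM of 112 (105 to 119) in control and 129 (122 to 136) in Klf9-OE PGCs, which is 15.1% higher and a log2 fold change of 0.20. Gtsf1 was at 0.715 times the level of Piwil2 in control PGCs and at 1.00 times in Klf9-OE PGCs. With widened Klf9-OE intervals those of Gtsf1 overlapped, and the 7 lower genes were still apart from control.

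**Figure D3:**
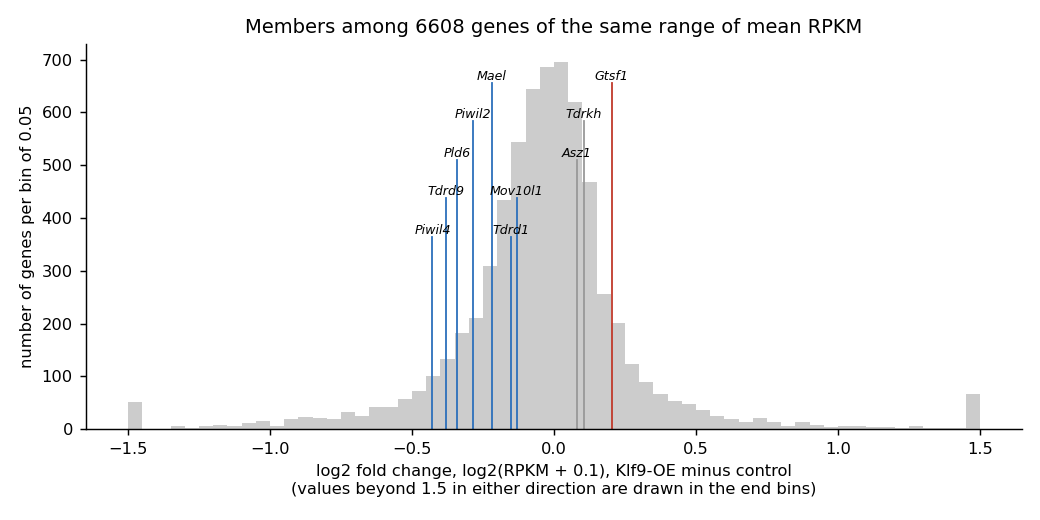
Distribution of log2 fold changes of 6608 genes with a mean RPKM in the range of the 10 piRNA pathway genes (grey bars), with the genes marked by lines (blue: lower with intervals apart, red: higher with intervals apart, grey: overlapping). All 10 lines lie between -0.43 and 0.20.

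Of 24 other genes of the pathway, 22 were found by symbol in both libraries. Wdr77, a cofactor of the methyltransferase PRMT5, is listed under a joint name in Klf9-OE PGCs, and Spocd1, a nuclear partner of PIWIL4, was not matched. Their levels ran from 0.159 (Tdrd6) to 1507 (Hsp90aa1), beyond the range of the 10 genes. Of the 22 genes, 7 were lower and 1 was higher with intervals apart, against 14.4% and 11.2% of all genes, and their median log2 fold change was -0.028. With the same sum as control, 5 were lower and 2 were higher, against 10.8% and 15.2% of all genes. The gene that stood out was Dnmt3l, the regulator of de novo DNA methylation in germ cells, with an RPKM of 80.9 (77.2 to 84.7) in control and 38.1 (36.0 to 40.2) in Klf9-OE PGCs. It was 2.12-fold lower, while 9.43% of all genes and 1.68% of those of like level were at least 2-fold lower, and 1.35% of the genes of like level had a lower log2 fold change. Dnmt3l was the only one of these 22 genes past 1.5-fold in either direction.

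Several further genes of nuclear silencing are named here because of their values. Morc1, a chromatin protein of transposon silencing in male germ cells, had an RPKM of 53.2 in control and 40.1 in Klf9-OE PGCs, with intervals apart and a log2 fold change of -0.41. Dnmt3a was lower as well (27.1 and 22.3, intervals apart), the intervals of Dnmt3b overlapped (5.995 and 6.15), and Tex15, a nuclear partner of PIWIL4, was higher (106 and 121, intervals apart). Henmt1, the methyltransferase that protects piRNA ends, was at 13.51 in control and 10.6 in Klf9-OE PGCs with intervals apart, while those of the trimming nuclease Pnldc1 (40.7 and 41.7) overlapped.

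The most abundant other genes differed little. Hsp90aa1, a chaperone used well beyond this pathway, had an RPKM of 1455 and 1507, and Ddx4, the germ cell helicase VASA, had 299.9 and 292, both with overlapping intervals, although Hsp90aa1 was higher with intervals apart under each of the 3 rescalings. The intervals of Stk31 (243 and 225), a Tudor protein, and of Gpat2 (142 and 134), a mitochondrial protein of piRNA biogenesis, overlapped as well. Fkbp6, a co-chaperone of Piwi loading, was lower, at 447 and 387, with intervals apart. The Tudor genes Tdrd5 (60.1 and 53.9) and Tdrd7 (66.5 and 60.1) were lower with intervals apart, by log2 fold changes of -0.16 and -0.15, and those of Tdrd12 and Rnf17 overlapped. The intervals of Tdrd7 overlapped with widened Klf9-OE intervals and under each rescaling, and those of Tdrd5 overlapped with the same sum as control. Piwil1 (MIWI), the Piwi protein of the adult testis, was at 7.50 in both libraries, and Mybl1, the transcription factor of the pachytene piRNA program, was at 15.3 in both.

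**Figure D4:**
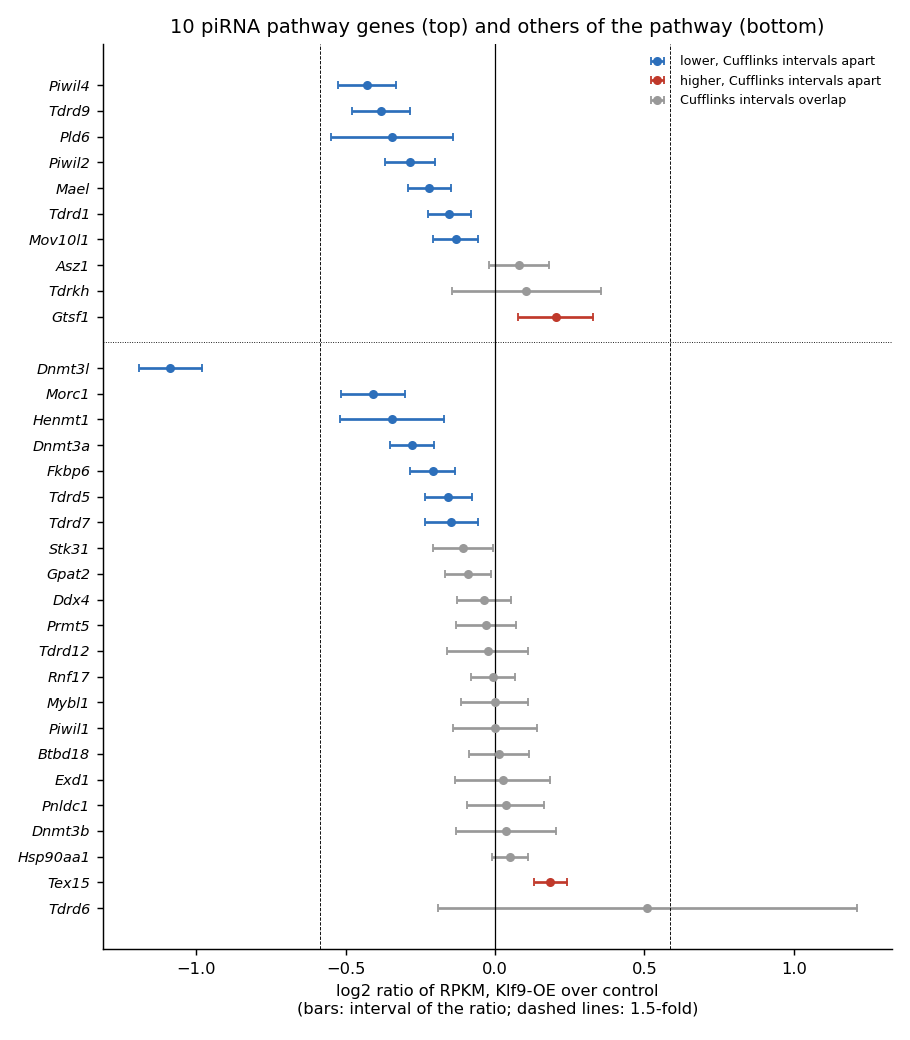
Log2 ratio of RPKM in Klf9-OE over control for the 10 genes (top) and 22 other piRNA pathway genes (bottom), taken without a pseudocount, with bars for the interval of the ratio and dashed lines at 1.5-fold. Colours give the overlap of the Cufflinks intervals, and Dnmt3l lies alone beyond the lower dashed line.

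Markers of the germ cells and of other cells differed between the libraries as well, and their counts stand beside 14.4% of all genes that were lower and 11.2% that were higher with intervals apart. Of 10 germ cell markers, 8 were lower and 1, Dazl, was higher with intervals apart, and the median of their log2 fold changes was -0.40. With widened Klf9-OE intervals those of Dazl overlapped. The largest difference was that of Dppa3 (STELLA), at an RPKM of 294 in control and 179 in Klf9-OE PGCs. Of 11 markers of gonad somatic cells, 6 were higher and 1 was lower with intervals apart, their median log2 fold change was 0.46, and their sum was 37.8 in control and 50.3 in Klf9-OE PGCs. With widened Klf9-OE intervals 5 were higher, without Gata4. No marker of this list was at 0, and its values ran from 0.257 (Foxl2) to 12.5 (Col1a1). The 4 endothelial markers summed to 3.13 and 5.99, of which Cdh5 alone made 1.995 and 5.09, while Tek was lower with intervals apart (0.735 and 0.439), Emcn was listed at 0 in Klf9-OE PGCs, and the median log2 fold change was -0.05. The intervals of Tek overlapped when the Klf9-OE intervals were widened and with the same sum as control. The 5 macrophage markers summed to 4.39 and 5.40, with Csf1r higher (0.307 and 1.18, intervals apart), lower values with overlapping intervals for Ptprc, Adgre1 and C1qa, and a median log2 fold change of -0.35. The 1 erythroid marker that was matched, Alas2, was at 0.532 and 0.570. The globin genes Hba-a1 and Hbb-bs are listed only under joint names and were not read, and Hbb-bt was not matched, so erythroid RNA was hardly measured here. The part of these cells in the differences of the piRNA pathway genes was not tested.

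Piwil4 and Tdrd1 are known as genes of male fetal germ cells, so genes of each sex were set beside the pathway. Their counts, too, stand beside 14.4% of all genes that were lower and 11.2% that were higher with intervals apart. Xist, the RNA of the inactive X chromosome, was at an RPKM of 0.829 (0.739 to 0.920) in control and 2.05 (1.91 to 2.20) in Klf9-OE PGCs. Of the Y-linked genes, Eif2s3y was lower with intervals apart (59.0 and 49.3), and the intervals of Ddx3y (3.76 and 4.29), Kdm5d (3.72 and 3.20) and Uty (4.95 and 5.50) overlapped, although Uty was higher with intervals apart with the same sum as control. Of 4 genes of male germ cells, which include Tdrd1, Piwil4 and Dnmt3l, these 3 were lower with intervals apart, and those of Nanos2, the male determinant, overlapped (4.85 and 4.68). Of these 3 genes, 2 belong to the 10 genes described above, and the intervals of Tdrd1 overlapped with the same sum as control. Of 4 matched genes of female or meiotic germ cells, Stra8, the inducer of meiosis (120 and 79.4), and Rec8 (37.0 and 30.04) were lower with intervals apart, and those of Sycp3 (541 and 557) and Sycp1 (140 and 152) overlapped, with Sycp1 higher with intervals apart under each rescaling. The share of each sex and the condition cannot be told apart with 1 library each.

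**Figure D5:**
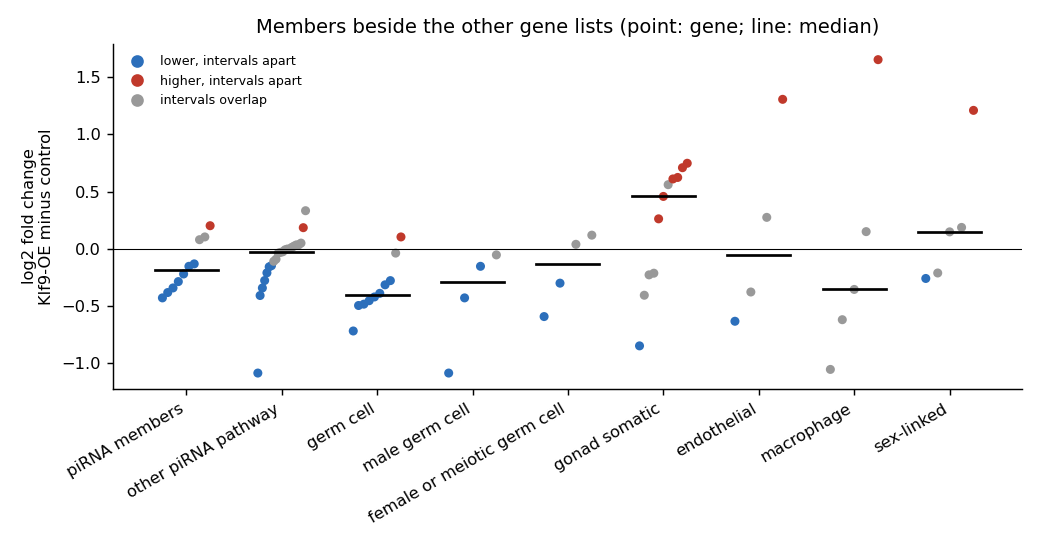
Log2 fold change of each gene in the piRNA pathway lists and in 7 lists of markers, as points coloured by the overlap of the Cufflinks intervals, with the median of each list as a line. The line is at -0.19 for the 10 piRNA pathway genes, at -0.40 for germ cell markers and at 0.46 for gonad somatic markers.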

How the data were processed

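RNA of 1 control and 1 Klf9-OE library of PGCs was sequenced by the authors with single-end reads and mapped to mm10 with TopHat2 and Bowtie, using RefSeq genes. The deposited values are FPKM from Cufflinks with 95% bounds, estimated by the authors in each library separately, which is RPKM for single-end reads. Tool versions are not given in the sources used here. The Cuffdiff results were not used here.

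Where several loci carried a symbol, their FPKM were added. A pseudocount of 0.1 was added before taking log2, so that differences of low genes are understated, and fold counts used no pseudocount. With 1 library per condition no test was run. Differences are given by whether the Cufflinks intervals overlap. The interval of a ratio combines the relative widths of both intervals in quadrature. The 10 genes, the lists of other genes, the motifs and the range of like levels were chosen with earlier results of these data known. The named genes are the 10 genes, other pathway genes changed 1.5-fold or among the 5 highest, germ cell markers changed 1.5-fold, Klf9, Xist and Y-linked genes, and others were named after their values were seen. Genomic positions and promoters come from RefSeq on GRCm38.p6, strand and exon numbers from GENCODE. Alternatives were other pseudocounts, scalings, minimum levels, folds and interval widths. Calls of the listed genes and of genes with a motif were also computed for each scaling and for the widened intervals, after the data were seen. The steps were tested on simulated data. Python 3.11.15, numpy 2.4.6, pandas 2.3.3 and matplotlib 3.10.9 were used.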

Additional observations from a re-analysis of the deposited data

How the results depend on the processing

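The direction of all 10 genes was the same under every pseudocount, scaling and summing tried, and the median log2 fold change of the group stayed between -0.19 and -0.12. The counts by interval depended on the scaling. Rescaled to the same sum of named genes, 4 genes were lower with intervals apart (Piwil2, Piwil4, Tdrd9 and Mael) and 2 were higher (Asz1 and Gtsf1). Of all genes with intervals apart, the share that was lower was then 41.5%, against 56.3% as deposited, and 49.7% with the same upper quartile and 49.98% with a median ratio of 1. With either of the last settings 6 genes were lower and 1 was higher. Among all genes, 10.8% were lower and 15.2% were higher with intervals apart with the same sum. These shares were 12.6% and 12.8% with the same upper quartile, and 12.7% and 12.7% with a median ratio of 1. With the Klf9-OE intervals widened by the square root of 2, 7 were lower and 0 higher. No gene was lower 1.5-fold or 2-fold, and with a ratio of 1.2, chosen after the data were seen, 4 were lower (Piwil2, Piwil4, Tdrd9 and Pld6) and 0 higher. The share of all genes past a ratio of 1.2 was not computed, so this count has nothing to be set against. The other 45 comparisons of counts and medians and all 60 of single genes stayed within 1.5 times the count or within the interval of the ratio. No paired analysis was possible because each condition has 1 library, and no library could be left out. The Cufflinks intervals do not cover the spread between cultures.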
